A study of Mus musculus with 12 samples.

Results

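The 6 genes described here bind or move metals. The metallothionein genes Mt1, Mt2 and Mt4, the hepcidin gene Hamp, the ferritin light chain gene Ftl1 and the metalloreductase gene Steap4, were followed in mice treated with mcIRBP, a bitter melon (Momordica charantia) protein that binds the insulin receptor. Each was taken by its symbol in the platform annotation, and each had 1 probe, giving 6 of 16675 annotated genes and 6 of the 29922 probes on the array. The 12 arrays were 1-colour arrays of RNA from BALB/c tissue labelled muscle, 3 in each of 4 groups. Normal mock and normal mcIRBP mice were labelled female, without diabetes, and untreated or given 2.5 nmol mcIRBP. Diabetic mock and diabetic mcIRBP mice were labelled male and diabetic (DM1 in the sample names), and untreated or given the same dose, so disease state and sex cannot be told apart. The labels give no age, no way in which diabetes arose, and no statement that the 3 arrays of a group came from 3 mice, so the spread between arrays may be partly technical. The 6 genes were chosen by their intensities in these same 4 groups, so their levels are given as a description, with no test.

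Metallothioneins are small cysteine-rich proteins that hold zinc and copper, and their genes are switched on by metals through the factor MTF1 and by glucocorticoids. Mt1 and Mt2 are active in most tissues, while Mt4 is known mainly from stratified squamous epithelium. Hepcidin is a hormone made by the liver that limits the entry of iron into plasma by removing the iron exporter ferroportin. Its gene is driven by BMP signals that report iron stores and by interleukin-6 through STAT3. Ferritin, built of light and heavy chains, stores iron inside cells. STEAP4 reduces iron and copper at membranes and is known from adipose tissue, where inflammatory signals raise it.

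Promoter sequences are shown for Mt1 and Mt2, neighbours in the genome whose levels differed between groups in different ways, and for Hamp, which was bright in 1 group alone. On chromosome 8 the RefSeq order is Mt4, Mt3, Gm39227, Mt2, Mt1. All 6 genes matched RefSeq promoter windows of build GRCm38.p6, which run from 250 bases before the start to 50 after it. The 250 bases before the start are printed, with capitals marking the metal response core (TGCACNC or TGCGCNC, either strand) in Mt1 and Mt2, and the STAT letters TTCNNNGAA and the BMP element GGCGCC in Hamp.
Mt1 (chr8:94178839-94179088, plus strand): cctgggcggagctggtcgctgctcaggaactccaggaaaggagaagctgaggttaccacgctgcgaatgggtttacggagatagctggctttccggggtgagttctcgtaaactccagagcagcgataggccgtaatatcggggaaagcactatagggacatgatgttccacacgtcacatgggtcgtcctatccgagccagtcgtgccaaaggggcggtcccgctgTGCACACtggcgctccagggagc
Mt2 (chr8:94172368-94172617, plus strand): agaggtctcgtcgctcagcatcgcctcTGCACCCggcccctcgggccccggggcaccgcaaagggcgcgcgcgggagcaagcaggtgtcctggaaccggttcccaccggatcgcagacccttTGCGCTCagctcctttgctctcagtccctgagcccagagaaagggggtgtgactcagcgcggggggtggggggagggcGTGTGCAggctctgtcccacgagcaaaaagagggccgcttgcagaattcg
Hamp (chr7:30944030-30944279, minus strand): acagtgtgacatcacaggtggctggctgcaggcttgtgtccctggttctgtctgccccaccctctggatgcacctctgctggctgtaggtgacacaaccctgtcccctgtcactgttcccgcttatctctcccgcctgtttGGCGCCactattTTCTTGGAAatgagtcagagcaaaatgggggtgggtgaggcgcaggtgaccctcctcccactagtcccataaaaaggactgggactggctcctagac
In the 300 bases searched the metal response core was matched 3 times in Mt1, 2 of them after the start, 4 times in Mt2, 1 of them after the start, and 1 time in Mt4. At least 1 match was found in 25.7% of all 32851 windows, and 4 or more in 0.517%. The STAT letters were in 8.30% of the windows and the BMP element in 11.9%. The motif letters were chosen after these sequences had been seen, and a match is a description of letters only.

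A probe counted as above threshold on an array when its raw intensity exceeded the mode of that array by 5 SD of the log2 values mirrored below the mode. Between 2551 and 12212 probes were above threshold per array, fewest on the normal mock arrays (2551 to 3824) and most on the diabetic mock arrays (9986 to 12212). Of 25 skeletal muscle markers, 1 and 1 were above threshold on all 3 arrays in normal mice (mock, then mcIRBP) and 7 and 2 in diabetic mice, and the fibre genes Myh7, Tnnt3, Tnni2, Tnni1, Neb and Actn3 were below it on all 12 arrays. In the same order the counts were 17, 4, 6 and 3 of 20 liver markers, 12, 13, 15 and 8 of 16 adipose markers, 0, 0, 14 and 17 of 17 epididymis markers, 0, 0, 4 and 4 of 15 squamous epithelium markers and 4, 10, 12 and 6 of 15 macrophage markers. The mean log2 intensity of the 25 muscle markers was 6.28 to 6.52 on normal mock arrays and 6.01 to 6.06 on diabetic mock arrays. Acta1 was above threshold on all 3 arrays of each normal group. In limma (adjusted p under 0.05) 7 muscle markers fell and none rose in diabetic mock against normal mock, with 8.39% of all probes called. In normal mcIRBP against normal mock 4 fell and none rose, with 6.17% called. The part of these marker differences in the results below was not tested. In bulk tissue, fewer cells of a type, less RNA per cell and a difference in the tissue sampled cannot be told apart.

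Mt1 was one of the brightest probes of the array, at ranks 1 to 9 on 10 of the 12 arrays. Its raw intensities were 9947, 6802 and 9268 on the normal mock arrays, 12055, 6960 and 1876 on the normal mcIRBP arrays, 35894, 44181 and 37442 on the diabetic mock arrays and 24490, 23182 and 16367 on the diabetic mcIRBP arrays. The diabetic arrays were all higher than the normal ones in raw intensity. After normalization the mean log2 intensities were 14.06 ± 0.28, 13.00 ± 1.02, 14.53 ± 0.13 and 14.35 ± 0.23 (SD, n = 3 each) in that order of groups. The wide spread of normal mcIRBP came from replicate 1 at 14.17 against 12.41 on both other arrays, where Mt1 ranked 42 in brightness. Neighbours in the order of these normalized levels overlapped, though in raw intensity the 3 diabetic mcIRBP arrays were below the 3 diabetic mock arrays. Diabetic mock lay above normal mock without overlap after normalization, as 37.9% of all probes did in either direction. The log2 difference of normal mcIRBP from normal mock was -1.06, and -1.65 without normal mcIRBP replicate 1.

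Mt2, the second of the widely expressed metallothioneins, differed between mock and mcIRBP in opposite directions in the 2 disease states. Raw intensities were 3469, 6312 and 5043 on normal mock, 14410, 24539 and 4507 on normal mcIRBP, 34037, 54424 and 35015 on diabetic mock and 19147, 12950 and 6337 on diabetic mcIRBP arrays. In log2 intensity the groups had 13.52 ± 0.28, 14.24 ± 0.23, 14.45 ± 0.13 and 13.51 ± 0.21 (SD, n = 3 each). The 3 normal mcIRBP arrays lay above the 3 normal mock arrays (log2 difference 0.72), where groups did not overlap for 18.7% of all probes. The 3 diabetic mcIRBP arrays lay below the 3 diabetic mock arrays (log2 difference -0.94), where 35.4% did not overlap. The share of all probes with this pair of directions and no overlap in both was 2.81%. The difference between the effects was -1.66 and was not tested. Normal mock and diabetic mcIRBP overlapped at the low end, and normal mcIRBP and diabetic mock at the high end.

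Quantile normalization gives the brightest probe of every array the same value, 14.61. Mt1 or Mt2 held that rank on all 3 diabetic mock arrays, and Mt1 on diabetic mcIRBP replicate 3. Scaling each array by its median instead, the log2 difference of diabetic mock from normal mock was 2.10 in place of 0.47 for Mt1 and 2.98 in place of 0.93 for Mt2. On that scale the Mt1 difference of diabetic mcIRBP from diabetic mock was -0.80 in place of -0.18. The arrays ranged from 14.05 to 14.59 in diabetic mcIRBP and from 15.09 to 15.30 in diabetic mock. With the same scaling the Mt2 difference with mcIRBP was 1.28 in normal mice and -1.70 in diabetic mice. The normal groups then overlapped for Mt2 (11.84 to 12.59 on normal mock and 12.20 to 14.56 on normal mcIRBP). Mt1 and Mt2 encode similar proteins, and whether a probe also binds the other transcript was not tested.

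**Figure D1:**
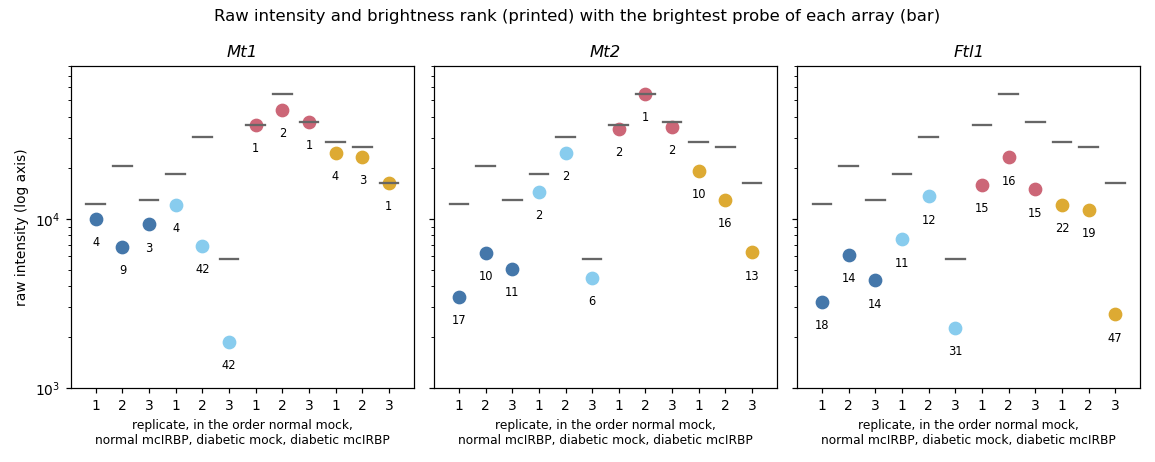
Raw intensity (log axis) of Mt1, Mt2 and Ftl1 on each array, coloured by group, with the brightness rank of the probe printed under each point and a bar at the brightest probe of the array. On diabetic mock arrays Mt1 and Mt2 hold ranks 1 and 2, so the points touch or approach the bar.

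Mt4 was far dimmer. Its raw intensities were 127, 81 and 108 on normal mock, with replicate 2 below threshold, 211, 788 and 139 on normal mcIRBP, 1363, 2638 and 1046 on diabetic mock, and 414, 429 and 69 on diabetic mcIRBP arrays. The diabetic mock arrays were above all 9 others. Mean log2 intensities were 7.20 ± 1.33, 8.26 ± 0.69, 9.81 ± 0.12 and 8.17 ± 0.99 (SD, n = 3 each), and the 3 lower groups overlapped with each other. The log2 difference with mcIRBP was -1.64 in diabetic mice and 1.06 in normal mice, the latter ranging from 0.30 to 1.56 as each array was left out. Of the 15 markers of squamous epithelium, where Mt4 is best known, Krt14, Krt10, Dsp and Sfn were above threshold on all 3 diabetic mock arrays, where Mt4 was highest, and on no normal mock array. Krt14, Dsp, Sfn and Calml3 were above it on all 3 diabetic mcIRBP arrays. Krt5, Krt15, Krt1, Dsg1a, Flg, Ivl, Krtdap and Krt6a were below it on all 12 arrays. In diabetic mock against normal mock none of the 15 was called (median log2 difference 0.005), where 8.39% of all probes were called. In diabetic mcIRBP against diabetic mock, where Mt4 was lower, 4 rose and none fell, with 6.77% of all probes called. The part of these markers in the Mt4 levels was not tested.

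Hamp was bright on the normal mock arrays alone. Raw intensities there were 1550, 1951 and 1444, against 58, 83 and 64 on normal mcIRBP, 42, 46 and 40 on diabetic mock and 39, 39 and 36 on diabetic mcIRBP arrays. All 9 of these lower values were below threshold and have no order. The normal mock mean was 12.29 ± 0.15 (log2 intensity, SD, n = 3), and its fold over the other groups is given as a lower bound, with each dim array set at its lowest intensity above threshold. The size of this bound depended on the scaling: it was at least 60.8-fold above normal mcIRBP and 75.8-fold above diabetic mock after quantile normalization, and at least 21.9-fold and 22.2-fold with median scaling. With quantile normalization on the log2 scale the bounds were 49.1 and 59.9. No fold is given between the diabetic groups. Hamp moved with the liver markers, whose mean log2 intensity over 20 genes ranged from 10.93 to 11.11 on normal mock arrays, 6.79 to 7.02 on normal mcIRBP, 6.81 to 6.84 on diabetic mock and 6.27 to 6.33 on diabetic mcIRBP. Of these 20 genes 17 fell in normal mcIRBP against normal mock (median log2 difference -4.29), and 17 fell in diabetic mock against normal mock (median -4.14). Of all probes 2.71% and 3.82% were called lower in these comparisons. On the 9 arrays where Hamp was below threshold, 10 of the 20 liver markers were below it too, among them Ttr, Apoa2, Fabp1 and Serpinc1, while Cyp2e1, Rbp4 and Trf were above it on all 9 and the other 7 on some. Alb, the albumin gene, was above threshold on all normal mcIRBP and diabetic mock arrays and on no diabetic mcIRBP array.

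**Figure D2:**
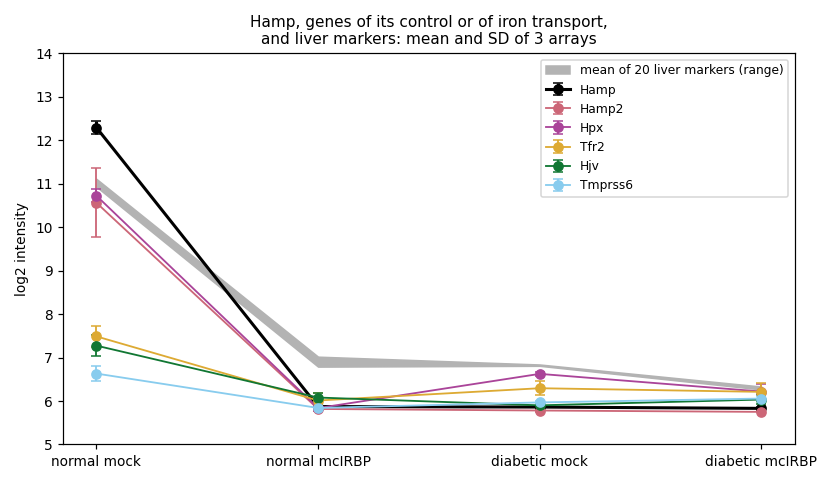
Mean log2 intensity with SD (n = 3 arrays) of Hamp and 5 genes of hepcidin control or iron transport in the 4 groups, with a grey band for the range over 3 arrays of the mean of 20 liver markers. Hamp, Hamp2 and Hpx stand above 10 on normal mock arrays and under 7 in the 3 other groups. The liver band also stands above 10 on normal mock arrays, and at 7.02 or lower elsewhere.

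Ftl1, the ferritin light chain, was bright on every array. Its raw intensities were 3247, 6117 and 4336 on normal mock, 7575, 13572 and 2268 on normal mcIRBP, 15907, 23036 and 14929 on diabetic mock and 12075, 11354 and 2731 on diabetic mcIRBP arrays. In log2 intensity the means were 13.36 ± 0.18, 13.31 ± 0.55, 13.33 ± 0.04 and 12.80 ± 0.46 (SD, n = 3 each). The diabetic mcIRBP arrays lay below the diabetic mock arrays without overlap (log2 difference -0.53), as 35.4% of all probes did in either direction, while normal mock, normal mcIRBP and diabetic mock overlapped each other. The direction of Ftl1 depended on the scaling. With median scaling the difference of diabetic mock from normal mock was 1.91 in place of -0.03, and that of normal mcIRBP from normal mock 0.48 in place of -0.05. The heavy chain gene Fth1 had 11.95 ± 0.49, 12.23 ± 0.39, 12.15 ± 0.14 and 11.16 ± 0.36, and its difference of -0.99 in diabetic mcIRBP against diabetic mock had an adjusted p = 0.0662 in limma.

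Steap4 was highest in diabetic mock mice. Raw intensities were 184, 187 and 102 on normal mock, 207, 2285 and 377 on normal mcIRBP, 2382, 6535 and 2179 on diabetic mock and 544, 413 and 106 on diabetic mcIRBP arrays. Only normal mcIRBP replicate 2, at a log2 intensity of 10.81, reached the diabetic mock range of 10.62 to 11.17. The means were 8.26 ± 0.59, 9.44 ± 1.52, 10.81 ± 0.31 and 8.53 ± 0.63 (SD, n = 3 each). The log2 difference of diabetic mcIRBP from diabetic mock was -2.28, and that of diabetic mock from normal mock 2.55, in both cases without overlap, as for 35.4% and 37.9% of all probes in these comparisons. With median scaling these differences were -3.30 and 4.44. The normal mcIRBP difference of 1.18 ranged from 0.50 to 2.01 as each array was left out. In diabetic mcIRBP against diabetic mock 12 of 16 adipose markers fell (median log2 difference -2.63) and 7 of 15 macrophage markers fell, while 17 of 17 epididymis markers rose (median 4.63). Of all probes 6.77% were called there. In diabetic mock against normal mock, with 8.39% called, 3 adipose markers rose and 1 fell, and 5 macrophage and 10 epididymis markers rose and none fell. The part of these lists in the Steap4 differences was not tested.

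**Figure D3:**
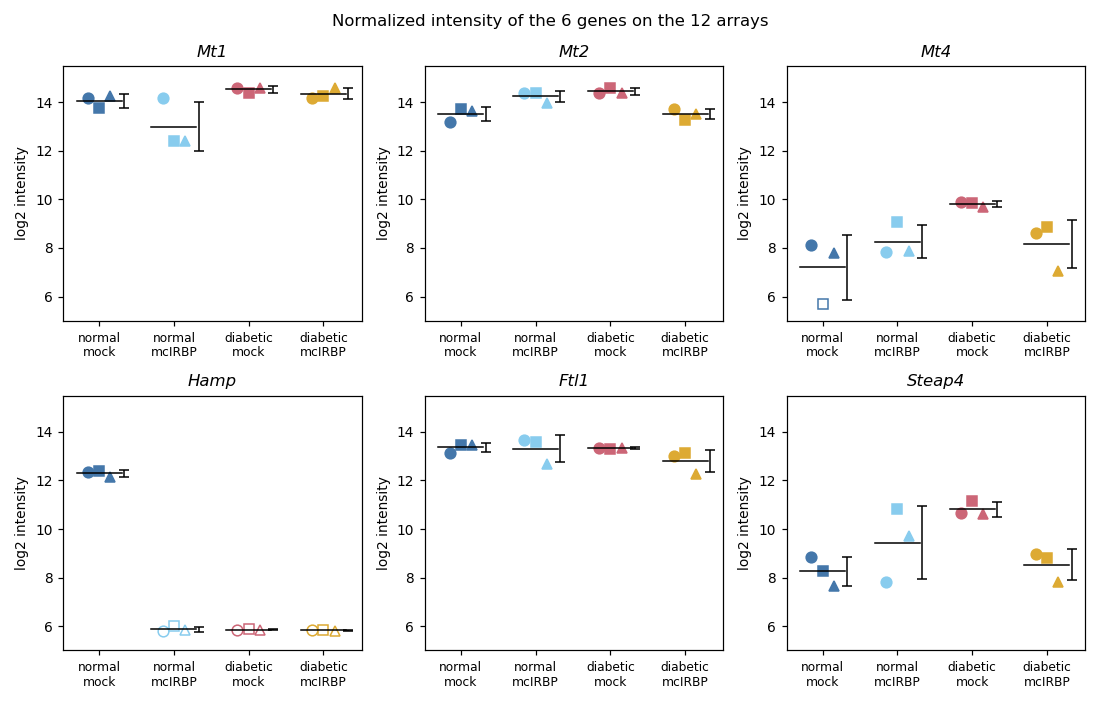
Normalized log2 intensity of the 6 genes on the 12 arrays. Circles, squares and triangles are replicates 1, 2 and 3, open symbols are below threshold, the line is the group mean and the bar beside it the SD of 3 arrays. Hamp is filled in normal mock alone, and Mt4 and Steap4 peak in diabetic mock.

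The other genes of metal and iron handling were tested with limma over all probes, at an adjusted p under 0.05. Of 111 listed genes 99 had a probe. In normal mcIRBP against normal mock 10 of them rose and 8 fell, where 6.17% of all probes were called (3.46% higher and 2.71% lower). In diabetic mcIRBP against diabetic mock 6 rose and 12 fell, where 6.77% of all probes were called (3.72% higher and 3.04% lower). In diabetic mock against normal mock 11 rose and 8 fell, where 8.39% were called (4.57% higher and 3.82% lower), and for the difference between the mcIRBP effects, diabetic minus normal, 11 were positive and 14 negative, where 9.11% were called (4.27% higher and 4.84% lower). With median scaling these splits became 0 and 3, 2 and 28, 68 and 5, and 5 and 41. The shares of all probes include many dim probes: 79 of the 99 genes were above threshold on at least 3 arrays, against 10764 of 29922 probes. Among these, 16, 21, 18 and 29 genes and 1560, 2017, 1765 and 2583 probes were called, in the same order of comparisons. Of the genes named below, 3 of 16 kept their call under median scaling in the first of these comparisons (Hamp2, Hpx and Tfr2), 15 of 19 in the second, 15 of 19 in the third and 18 of 21 in the last. Without any 1 of several arrays the counts also moved by over 1.5 times. For diabetic mcIRBP against diabetic mock, 10 genes were called without diabetic mock replicate 1, without diabetic mock replicate 2 or without diabetic mcIRBP replicate 2. For diabetic mock against normal mock, 12 were called without diabetic mock replicate 1 or replicate 3.

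**Figure D4:**
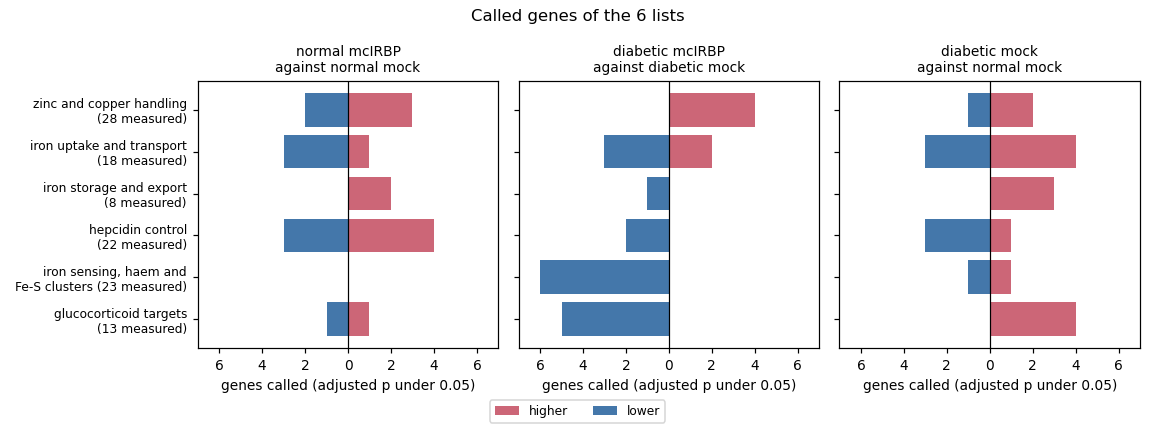
Number of genes called higher (right, red) or lower (left, blue) at an adjusted p under 0.05 in 6 lists, for the 3 comparisons between groups. The haem and iron-sulphur list has 6 lower calls in diabetic mcIRBP against diabetic mock and none in normal mcIRBP against normal mock.

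Zinc and copper handling had 28 measured genes. Of all probes 6.17% were called in normal mcIRBP against normal mock, 6.77% in diabetic mcIRBP against diabetic mock and 8.39% in diabetic mock against normal mock. In normal mcIRBP mice 3 rose and 2 fell. The zinc importer gene Slc39a10 rose from below threshold (fitted log2 difference 1.17 ± 0.11, SE, adjusted p = 0.000144) and the copper importer gene Slc31a1 fell by 0.80. No lower bound above 1-fold could be given for Slc39a10. In diabetic mcIRBP mice 4 rose and none fell, of which Atox1 and Slc30a7 were not called without any 1 of the 6 diabetic arrays. The lowest p was that of the zinc exporter gene Slc30a2, which was below threshold on all diabetic mock arrays and above it on all diabetic mcIRBP arrays, at least 2.88-fold higher (adjusted p = 1.18e-05). Slc31a1 rose by 0.71 there, but with median scaling its difference was -0.13, and 0.01 in normal mice. In diabetic mock against normal mock 2 rose and 1 fell, the latter being Ccs, the copper chaperone for superoxide dismutase, at -1.68, which was not called without diabetic mock replicate 1 or replicate 3 and was 0.25 with median scaling. Mtf1, the metal-sensing activator of the metallothionein genes, was below threshold on all 12 arrays. Mt3, the metallothionein known from brain, had 5.92 ± 0.10, 6.17 ± 0.23, 6.27 ± 0.12 and 6.30 ± 0.20 (log2 intensity, SD, n = 3 each) and was not called in any comparison.

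Iron uptake and transport (18 measured genes) had 1 rise and 3 falls in normal mcIRBP mice. Hpx, the haem carrier hemopexin made by the liver, fell from 10.72 ± 0.15 to below threshold, at least 20.5-fold (adjusted p = 6.00e-10), or at least 8.25-fold with median scaling. Tfr2, the iron-sensing transferrin receptor of hepatocytes, fell at least 2.17-fold (1.33-fold with median scaling), and Slc46a1, a folate and haem transporter gene, fell by 0.97, with a difference of -0.16 under median scaling. In diabetic mcIRBP mice 2 rose and 3 fell. Hp, which encodes the haemoglobin-binding haptoglobin made in liver and fat, fell from 13.03 ± 0.07 to 11.26 ± 0.08 (adjusted p = 6.98e-05), and Ltf, the iron-binding lactoferrin gene, rose by 1.53 ± 0.15 (SE). Cd163, the macrophage receptor for haptoglobin with haemoglobin, was called lower in diabetic mcIRBP mice (-0.62) and higher in normal mcIRBP mice (0.41), the latter lost without normal mcIRBP replicate 2, among other arrays. It was below threshold on all diabetic mcIRBP arrays, at least 1.0066-fold lower. In normal mice it was above threshold on 1 mcIRBP array and no mock array. In diabetic mock against normal mock 4 rose and 3 fell. Lcn2, which binds iron-carrying siderophores, rose by 2.19 ± 0.41 (SE, adjusted p = 0.00999), and Hpx fell by 4.10.

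Of iron storage and export (8 measured genes), 2 rose in normal mcIRBP mice, 1 fell in diabetic mcIRBP mice and 3 rose in diabetic mock against normal mock. Heph, a copper enzyme that oxidizes iron for export, fell from 7.33 ± 0.04 to below threshold in diabetic mcIRBP mice, at least 1.86-fold (adjusted p = 3.59e-05), and rose from below threshold in normal mcIRBP mice, at least 1.32-fold (adjusted p = 0.00325). The 2 effects on Heph differed by -2.21 ± 0.16 (SE, adjusted p = 1.35e-05). Pcbp2, an iron chaperone gene, rose by 2.01 in diabetic mock against normal mock (adjusted p = 0.0109) and by 1.57 in normal mcIRBP against normal mock, the latter lost without normal mcIRBP replicate 2, among other arrays. The ferroportin gene Slc40a1 was above threshold on 2 of 3 arrays in every group and was not called, with a spread of 8.06 ± 1.58 in normal mock.

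Hepcidin control (22 measured genes) had 4 rises and 3 falls in normal mcIRBP mice. Hamp2, the neighbouring hepcidin copy, fell at least 18.3-fold (adjusted p = 3.99e-06), or at least 7.34-fold with median scaling, and, as a near copy, may share signal with the Hamp probe. Hjv, the BMP co-receptor hemojuvelin, fell at least 1.87-fold (1.16-fold and not called with median scaling). Tmprss6, the protease that cuts hemojuvelin, was called lower while below threshold on all 12 arrays. Stat3 rose by 0.98 ± 0.10 (SE, adjusted p = 0.000209), and its second probe was called in the same direction. In diabetic mcIRBP mice 2 fell. Cebpa, a liver and fat transcription factor gene, fell at least 2.95-fold (adjusted p = 0.000611), and Il6st, the signalling subunit of the interleukin-6 receptor, fell by 0.95 but was not called when any 1 of the 6 diabetic arrays was left out. In diabetic mock against normal mock 1 rose and 3 fell, with Hamp2 at least 22.8-fold lower (7.43-fold with median scaling) and Smad5, a BMP signal carrier, higher from below threshold (fitted log2 difference 1.17, adjusted p = 0.00537). No lower bound above 1-fold could be given for Smad5.

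Among genes of iron sensing, haem and iron-sulphur clusters (23 measured), none was called in normal mcIRBP mice and 6 fell in diabetic mcIRBP mice. Alas2, the red cell form of the first enzyme of haem synthesis, fell from 8.41 ± 0.06 to 6.48 ± 0.12 (adjusted p = 0.000296), and Alas1, the form of other tissues, fell from 10.69 ± 0.07 to 8.59 ± 0.21 (adjusted p = 0.0125). Bola3 and Nfu1, which pass on iron-sulphur clusters in mitochondria, had log2 differences of -0.90 and -0.91. The calls of Alas1 and Nfu1 were lost without diabetic mock replicate 1, among other arrays. The median of the list was -0.39, against 0.01 for all probes. In diabetic mock against normal mock 1 rose (Alas2, by 1.09, not called without diabetic mock replicate 1) and 1 fell (Cpox, a haem synthesis enzyme, below threshold on all 12 arrays).

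Glucocorticoid targets (13 measured genes) were listed because glucocorticoids also raise metallothionein genes. They had 1 rise and 1 fall in normal mcIRBP mice, 5 falls in diabetic mcIRBP mice and 4 rises in diabetic mock against normal mock. Of all probes 6.17%, 6.77% and 8.39% were called, in the same order. Ddit4, an inhibitor of mTORC1 signalling, rose by 2.22 ± 0.11 in diabetic mock against normal mock (SE, adjusted p = 7.80e-07) and fell by 1.36 ± 0.11 in diabetic mcIRBP against diabetic mock (adjusted p = 4.78e-05). Pdk4, a kinase that restrains pyruvate oxidation, rose by 2.35 and fell at least 5.96-fold in these comparisons, which share the diabetic mock arrays. Ddit4 was also the gene that fell in normal mcIRBP against normal mock (-0.92, adjusted p = 0.000967 in limma). With median scaling that difference was -0.27 and not called. Fkbp5 and Tsc22d3, further glucocorticoid targets, were not called in any comparison. Lcn2 stands in this list and in the iron transport list.

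The genes with the pattern most like each member over the 12 arrays were taken by Pearson r among 9101 annotated probes above threshold on at least 3 arrays, as a description. For Hamp they were the liver genes Slco1b2, Fabp1 and Gulo, with r from 0.999 upward, all bright on normal mock arrays and at the floor elsewhere. For Mt1 they were Cops4, 1110001J03Rik and 2400001E08Rik (r = 0.972, 0.947 and 0.910), and for Mt2 a probe annotated Mir16, here an older symbol of Gde1, with Ddx51 and Ranbp9 (r = 0.937, 0.934 and 0.927). For Mt4 they were Timm10, Ndufa8 and Hnrnpu (r = 0.935, 0.929 and 0.918), for Ftl1 Pak1ip1, Plekhm2 and AA536749 (r = 0.912, 0.904 and 0.884) and for Steap4 Nde1, Unc45b and Yeats4 (r = 0.956, 0.950 and 0.935). The 12 points share 4 groups, so r follows the group means.

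**Figure D5:**
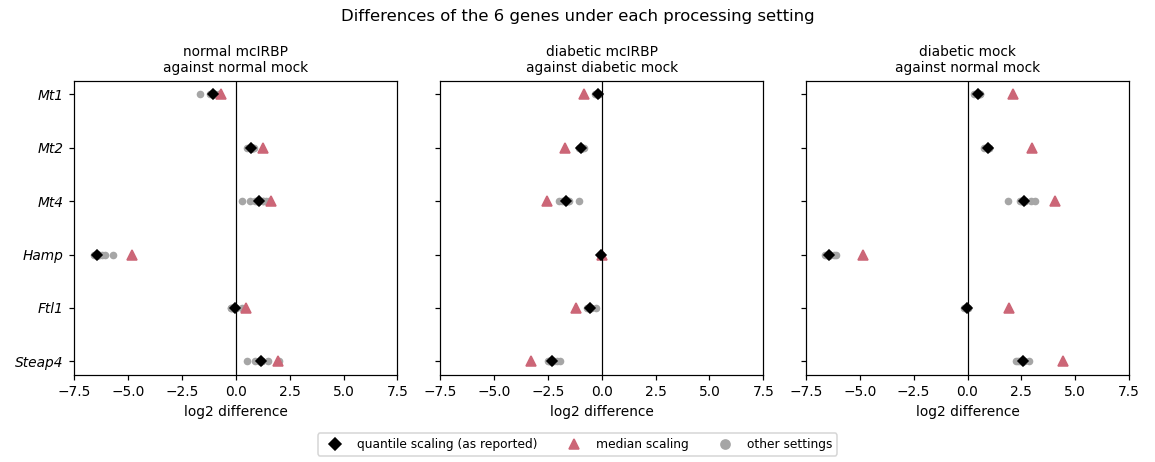
Log2 difference of each gene in 3 comparisons under the reported processing (black diamonds), median scaling (red triangles) and the other settings, including leaving out each array (grey circles). Ftl1 alone lies on both sides of 0 within a comparison.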

How the data were processed

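The data are 12 arrays of 1 colour with 29922 probes each. The deposited raw intensity of each probe was used; the authors' normalized intensity, deposited beside it, had the same rank order on each array and was scaled separately by disease state, so it served as an alternative within a state. The deposited series table repeats those normalized values. Per the submitters' processing notes limma was used, with no version; other steps are not given in the sources used here. Of the probes, 21020 had 1 gene symbol, 8902 none and 0 several.

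Raw intensities were corrected with normexp (offset 50), quantile normalized on the linear scale and taken to log2 (limma 3.58.1, R 4.3.3). Group means were fitted over all 12 arrays (residual degrees of freedom: 8), and p-values of limma's moderated test were adjusted by Benjamini-Hochberg over every probe, with a threshold of 0.05. Precision is limited by the number of arrays. The fit was tested on simulated data. A gene with several probes was represented by the one with the highest mean. Named genes were the 6 members, up to 4 called genes with the lowest p per list and comparison, and the 3 genes most like each member.

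The members and lists were chosen with earlier results of these data known. So were 2 settings. The first run here quantile normalized log2 values and took the array mode from a density with the default bandwidth. Both were then replaced, the first by the linear scale because it gave the number of calls of an earlier analysis of these files, the second by a bandwidth of 0.03, picked from 86 combinations of bandwidth, grid and spread estimate because its counts of probes above threshold matched that analysis. Neither was preferred on other grounds, and the first settings are given among the alternatives. The motif letters were chosen after the promoters had been read, and a further motif, read off the Steap4 promoter itself, was dropped.

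Alternatives were no background correction, median scaling, a filter on dim probes, the deposited normalized intensity, only the 6 arrays of a comparison, the replicate number as a block, the mean of all probes of a gene, a threshold of 3 SD, and leaving out each array.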

Additional observations from a re-analysis of the deposited data

Results flagged for a closer look

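After quantile normalization Mt2 was higher on all 3 normal mcIRBP arrays than on the normal mock arrays and lower on all 3 diabetic mcIRBP arrays than on the diabetic mock arrays (in raw intensity and with median scaling the normal groups overlapped), and the effects differed by -1.66 (log2, diabetic minus normal), a difference that was not tested because Mt2 was chosen on these groups.

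For 21 further genes the mcIRBP effect differed between disease states in limma's test of the difference (adjusted p under 0.05, with 9.11% of all probes called). Sex differs with disease state on these arrays. Among these 21 the difference, diabetic minus normal on the log2 scale, was positive for Hamp2 (4.71), Hpx (4.48), Slc46a1 (1.83), Slc30a2 (1.69), Slc31a1 (1.51), Hjv (1.33) and Tmprss6 (0.88). It was negative for Pdk4 (-3.60), Alas2 (-2.67), Heph (-2.21), Sgk1 (-2.20), Cebpa (-2.15), Pcbp2 (-2.11), Hp (-1.82), Slc39a10 (-1.55), Blvra (-1.52), Cdkn1a (-1.47), Bola3 (-1.24), Cd163 (-1.03), Slc30a9 (-0.75) and Per1 (-0.50). The calls of Blvra, Cdkn1a, Pcbp2 and Sgk1 were lost when some single arrays were left out. Hamp2 and Hjv were below threshold on all diabetic arrays and Tmprss6 on every array, so no fall could be seen in diabetic mice. Their differences, and that of Hpx (6.62 and 6.22 in the diabetic groups), mostly restate the falls in normal mice. Slc30a2 and Per1 were below threshold on all normal arrays.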

How the results depend on the processing

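With median scaling, called probes in normal mcIRBP against normal mock, diabetic mcIRBP against diabetic mock, diabetic mock against normal mock and the difference of effects were 292, 4050, 15092 and 6297 (1845, 2025, 2510 and 2725 as reported), and called metal and iron genes 3, 30, 73 and 46 (18, 18, 19 and 25 as reported). In the first 2 comparisons the deposited normalized intensity gave 538 and 4382 probes and 10 and 41 genes, and only the 6 arrays of the comparison 549 and 4230 probes and 10 and 40 genes. Leaving out each array gave 1406 to 2813, 1277 to 2585, 1107 to 3522 and 1904 to 3452 probes, and 16 to 21, 10 to 26, 12 to 25 and 20 to 33 genes. No background correction, the dim probe filter, the replicate block, the mean of all probes and log-scale quantile normalization kept each count they gave within 1.5 times. Log-scale quantile normalization, the first setting used, gave 1898, 2009, 2606 and 2760 probes and 18, 18, 20 and 25 genes.

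Directions turned under median scaling for Ftl1 (0.48 in normal mcIRBP, 1.91 in diabetic mock against normal mock), the Mt1 difference of effects (-0.14), Slc31a1 (0.013, -0.13 and, for the difference, -0.15), Slc30a7 (-0.086) and Atox1 (-0.12) in diabetic mcIRBP, and Tmprss6 (0.025) and Ccs (0.25) in diabetic mock against normal mock. As each array was left out, Ftl1 ranged from -0.23 to 0.27 in normal mcIRBP against normal mock, above 0 without normal mock replicate 2 or 3 or normal mcIRBP replicate 3, and from -0.14 to 0.021 in diabetic mock against normal mock, above 0 without normal mock replicate 2 or 3. The cause was not tested. Of 1432 values of named pathway genes under alternatives, 1289 kept their call, 136 lost it and 7 turned.

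The linear quantile scale and the density bandwidth as reported were chosen after seeing the data, in place of the settings of the first run, and the alternatives to both were added then. The Hamp bounds, 60.8 and 75.8 as reported, were 21.9 and 22.2 with median scaling, 66.0 and 81.0 with 3 SD, 61.8 and 76.2 with the default density, 49.1 and 59.9 with log-scale quantile normalization and 49.8 and 60.2 with both, the settings of the first run. Over the 86 density settings they ranged from 54.1 to 66.4 and from 74.7 to 79.4, with Hamp above threshold on the 3 normal mock arrays and no other in all 86. Median scaling also lowered the bounds of Hamp2, Hpx, Tfr2 and Hjv in normal mcIRBP against normal mock to 7.34, 8.25, 1.33 and 1.16 and that of Hamp2 in diabetic mock to 7.43, and raised those of Pdk4, Cebpa and Heph in diabetic mcIRBP to 10.4, 4.93 and 2.92 and of Heph in normal mcIRBP to 2.01. Replicate numbers did not pair the arrays: deviations of same-numbered arrays correlated over 0.1 in 4 of 18 pairs (-0.34 to 0.25), and 3 of 12 arrays correlated best with their own number. With the replicate block 1463, 1749, 1844 and 2373 probes and 16, 16, 16 and 23 genes were called, and of the named genes Sgk1, Pcbp2 and Cd163 in normal mcIRBP, Atox1 in diabetic mcIRBP, Pcbp1 in diabetic mock against normal mock and Pcbp2 for the difference lost their call.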
